A study of Rattus norvegicus with 12 samples.

Results

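The heat shock and unfolded protein response genes described here are 38 gene symbols, chosen by name, in rat colon and hippocampus after neonatal hypoxia-ischemia. They comprise 10 cytosolic chaperones, 3 mitochondrial chaperones, 12 folding factors of the endoplasmic reticulum (ER), 3 genes of ER-associated degradation, 4 genes of the ER stress sensors and their transcription factor Xbp1, and 6 genes of the integrated stress response. All 38 were listed in the colon table, in 39 of its 14803 rows, and 37 in the hippocampus table, in 38 of its 14266 rows. Hspa8 had 2 rows in each table, and Trib3 was listed only in the colon table. Whole-tissue RNA was sequenced from 2 groups of rats per tissue, sham controls and animals with hypoxic-ischemic brain damage (HI), at 3 libraries a group, which makes 12. The series title speaks of newborn rats and of lipopolysaccharide from gut bacteria acting through TLR4, MyD88 and NF-κB. The sources used here do not give strain, sex, exact age, the operation behind the label HIBD or the time after it. The labels do not say whether the libraries came from separate animals, so p-values measure only the spread between these libraries, which may be technical.

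Cells hold 2 main programmes against misfolded protein. In the heat shock response, the transcription factor HSF1 is released from chaperones when unfolded proteins accumulate in the cytosol, binds heat shock elements and induces HSP70, HSP90, their J-domain partners and the small heat shock protein Hspb1. In the unfolded protein response, 3 sensors in the ER membrane (Ern1, Eif2ak3 and Atf6) act when ER chaperones such as Hspa5 are drawn away by misfolded cargo: Ern1 splices Xbp1 mRNA, Atf6 is cut to a transcription factor, and Eif2ak3 phosphorylates eIF2α, which favours translation of Atf4 and transcription of Ddit3, Trib3, Chac1 and Asns. That last arm is shared with other eIF2α kinases and is called the integrated stress response. Secretory cells such as goblet cells of the gut carry large ER chaperone pools, and ischemia and reperfusion are known inducers of both programmes in brain and gut.

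Levels are in FPKM, which divides a gene's fragments by its transcript length and by the library's mapped total, so levels of different genes are per length. The depth of the libraries is unknown. The listed FPKM summed to between 495505 and 509775 in a colon library and to between 452291 and 466432 in a hippocampus library. Summed markers of hippocampal neurons lay between 2105 and 2190 FPKM in the hippocampus and between 25.0 and 35.2 in the colon, and those of colon epithelium between 2845 and 3676 FPKM in the colon and between 1.75 and 7.23 in the hippocampus. The colon header names 2 sham columns alike, and these are called sham 3a and sham 3b. Colon sham values below are in the order sham 1, sham 3a, sham 3b, and all HI values in the order HI 1, HI 2, HI 3. The colon library HI 2 and the hippocampus library HI 1 stood apart from the others in ways set out beside the results they touch.

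Promoters are shown for the response elements of these programmes that some of them hold, and 13 of the 30 windows searched held none of the motifs named here. RefSeq promoter entries on the rat assembly GRCr8 were used for 30 of the 38 symbols, and the 250 bases before the gene start were searched on both strands. No entry was matched for Hspa1b, Hsp90aa1, Pdia3, Pdia6, Manf, Atf6 and Ern1. The ER stress element, to which ATF6 and NF-Y bind, was searched as CCAAT and CCACG with 9 bases between them. It was found in 18 of the 21850 protein-coding promoters searched (0.0824%), and 5 of those 18 belonged to these genes, namely Hspa5, Hsp90b1, Calr, Dnajc3 and Xbp1. Each stretch below is printed 5′ to 3′ on the strand on which the element reads as spelled, with its CCAAT and CCACG in capitals.
Hspa5 (chr3:38452965-38452999, gene strand, match 43 to 25 bases before the start): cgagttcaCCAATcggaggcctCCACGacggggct
Hsp90b1 (chr7:23012443-23012477, gene strand, match 176 to 158 bases before the start): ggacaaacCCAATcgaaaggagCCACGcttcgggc
Hsp90b1 (chr7:23012339-23012373, opposite strand, match 72 to 54 bases before the start): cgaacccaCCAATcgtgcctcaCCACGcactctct
Calr (chr19:40213127-40213161, opposite strand, match 232 to 214 bases before the start): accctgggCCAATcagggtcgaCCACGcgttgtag
Dnajc3 (chr15:102432526-102432560, gene strand, match 133 to 115 bases before the start): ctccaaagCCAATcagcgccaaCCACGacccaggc
Xbp1 (chr14:84604550-84604584, gene strand, match 65 to 47 bases before the start): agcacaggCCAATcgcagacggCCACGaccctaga

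The whole window is given for Hspa5, the ER chaperone BiP, with the same capitals.
Hspa5 (chr3:38452766-38453015, + strand): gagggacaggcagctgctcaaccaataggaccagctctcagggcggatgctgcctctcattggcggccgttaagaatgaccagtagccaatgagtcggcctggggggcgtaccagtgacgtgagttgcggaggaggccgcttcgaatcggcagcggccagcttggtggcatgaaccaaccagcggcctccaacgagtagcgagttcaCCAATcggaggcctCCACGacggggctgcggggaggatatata

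A heat shock element core was searched as GAANNTTC or TTCNNGAA, each of which is its own reverse complement. Matches stood in 5 of the 8 cytosolic chaperone promoters matched (Hspa8, Hsph1, Hspb1, Dnaja1 and Dnajb1), in all 3 mitochondrial ones, in Eif2ak3, and in 0 of the 8 ER folding promoters searched, against 12.7% of all promoters. The windows of Hspa1a, Hspa4 and Hsp90ab1 held no match. Such matches can overlap, so that 1 run of letters holds several. Hspd1 and Hspe1, the 2 subunits of the mitochondrial chaperonin, lie head to head and their windows share 211 bases, so the 3 matches counted for each are the same 3. The stretches below show 1 match for each of 4 genes in capitals, and the whole window of Hsph1, the HSP110 nucleotide exchange factor, is given with every match in capitals.
Hspe1 (chr9:64084257-64084284, gene strand, match 60 to 53 bases before the start): ctcggttctaGAACCTTCcggaaggccc
Hspa8 (chr8:50080449-50080476, gene strand, match 55 to 48 bases before the start): ggcggaacccTTCTGGAAggttctaaga
Hspb1 (chr12:26432413-26432440, gene strand, match 129 to 122 bases before the start): ttcaactagaGAAGTTTCcagatggggg
Dnajb1 (chr19:41431142-41431162, gene strand, match 11 to 4 bases before the start): gggaggggcgGAAGGTTCtgg
Hsph1 (chr12:10427118-10427367, + strand): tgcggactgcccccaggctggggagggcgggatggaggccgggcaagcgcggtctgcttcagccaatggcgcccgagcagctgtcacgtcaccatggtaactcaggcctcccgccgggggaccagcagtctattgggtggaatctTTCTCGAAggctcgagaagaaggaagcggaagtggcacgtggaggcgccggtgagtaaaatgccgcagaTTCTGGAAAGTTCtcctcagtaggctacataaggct

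The core of the C/EBP-ATF response element, TGATGNAA, to which ATF4 binds with C/EBP partners, was found before Chac1, Trib3, Herpud1 and Hspa9, and in 2.91% of all promoters. Of the 6 integrated stress windows 2 held it, and those of Asns, Ddit3, Atf4 and Ppp1r15a did not. The letters TGACGTGG, the unfolded protein response element of XBP1 and ATF6, were found in 0 of the 30 windows and in 0.535% of all promoters. The stretches of Chac1 and Trib3 are shown because both genes are known ATF4 targets.
Chac1 (chr3:126795954-126795981, opposite strand, match 167 to 160 bases before the start): ctagcaggagTGATGCAAcggcggagaa
Trib3 (chr3:161275537-161275564, opposite strand, match 21 to 14 bases before the start): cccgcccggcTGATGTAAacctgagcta

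**Figure D1:**
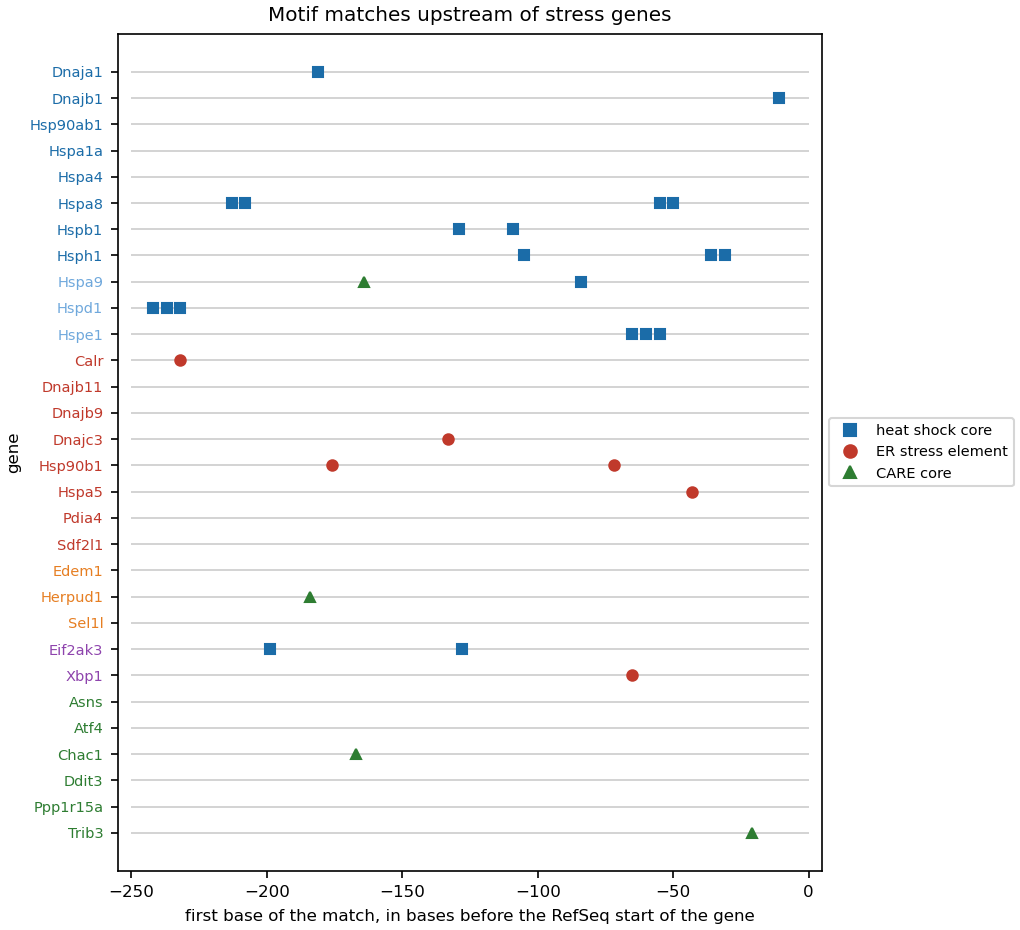
Positions of the motif matches in the 250 bases before the RefSeq start of 30 stress genes, with 1 line per gene and the horizontal axis in bases before the start. Squares (heat shock core) stand mainly on the lines of cytosolic and mitochondrial chaperones, and circles (ER stress element) on those of Calr, Dnajc3, Hsp90b1, Hspa5 and Xbp1.

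These letters describe the windows only, and no binding was measured. A match or its absence in 250 bases says nothing of the factor's action in these tissues.

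In sham tissue the colon carried more mRNA of the ER folding factors and the hippocampus more of several cytosolic chaperones. The 2 tables were normalized separately, so levels were set side by side without a test. Over all 12 libraries, every colon library lay above every hippocampus library for 10 of the 12 ER folding genes, and for none of them was the hippocampus above the colon. Of the 11 cytosolic rows, 4 were higher in the colon, 6 in the hippocampus, and 1 overlapped. Of 13015 genes tested in both tables, 43.2% lay wholly higher in the colon and 31.1% wholly higher in the hippocampus, and the median ratio of sham means, colon over hippocampus, was 1.18. That ratio had a median of 1.70 over the ER folding genes, 1.498 over the mitochondrial chaperones and 0.768 over the cytosolic rows.

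In both sham tissues the most abundant stress transcripts were those of the cytosolic Hsp90ab1 and Hspa8. Hsp90ab1, the constitutive HSP90, stood at 560.0 ± 40.4 FPKM in sham colon and 746 ± 30.7 in sham hippocampus (mean ± SD, n = 3). The main Hspa8 row, the constitutive HSP70 on chromosome 8 of the deposited annotation, stood at 559.6 ± 10.7 and 728 ± 34.2 FPKM. A second Hspa8 row, on chromosome 5, stood at 43.1 ± 0.370 and 51.3 ± 1.54 FPKM. Whether reads were split between these rows was not tested. Larger gaps were those of Hsph1, 5.04-fold higher in sham hippocampus, Hsp90aa1, the stress-inducible HSP90, 2.83-fold, and Dnaja1, an HSP40 partner of HSP70, 2.17-fold. Hspb1 (HSP27) ran the other way, with 72.9 ± 4.82 FPKM in sham colon and 5.81 ± 0.927 in sham hippocampus, a ratio of 12.5.

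Among the ER genes, Calr, a lectin chaperone and calcium store, and Pdia3, the disulfide isomerase that works with it, were the most abundant in the colon, at 526 ± 55.7 and 438 ± 30.7 FPKM. In the hippocampus they stood at 355 ± 2.31 and 179 ± 7.33 FPKM. Hspa5 stood at 265 ± 17.7 FPKM in sham colon and 167 ± 3.87 in sham hippocampus. The largest ratios in favour of the colon were those of Dnajc3, the HSP40 co-chaperone p58IPK, at 4.39, Pdia4 at 3.52, the mannosidase-like degradation factor Edem1 at 3.34 and the sensor Ern1 at 3.22. Canx and Dnajb9 overlapped between the tissues.

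Genes of the integrated stress response did not share 1 direction. Asns, asparagine synthetase, was 4.08-fold higher in sham hippocampus (28.4 ± 1.13 against 6.96 ± 0.841 FPKM). Chac1, a glutathione-degrading enzyme, was at 0.738, 0.846 and 0.471 FPKM in the sham colon libraries and 6.94, 7.41 and 7.03 in the sham hippocampus libraries, a ratio of 10.4, and it missed the filter of at least 1 FPKM in 3 libraries in the colon. Atf4 was higher in the colon, at 126 ± 6.26 against 98.5 ± 0.723 FPKM, while Ddit3 (CHOP) and Ppp1r15a (GADD34, which returns eIF2α to its unphosphorylated state) overlapped between the tissues.

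**Figure D2:**
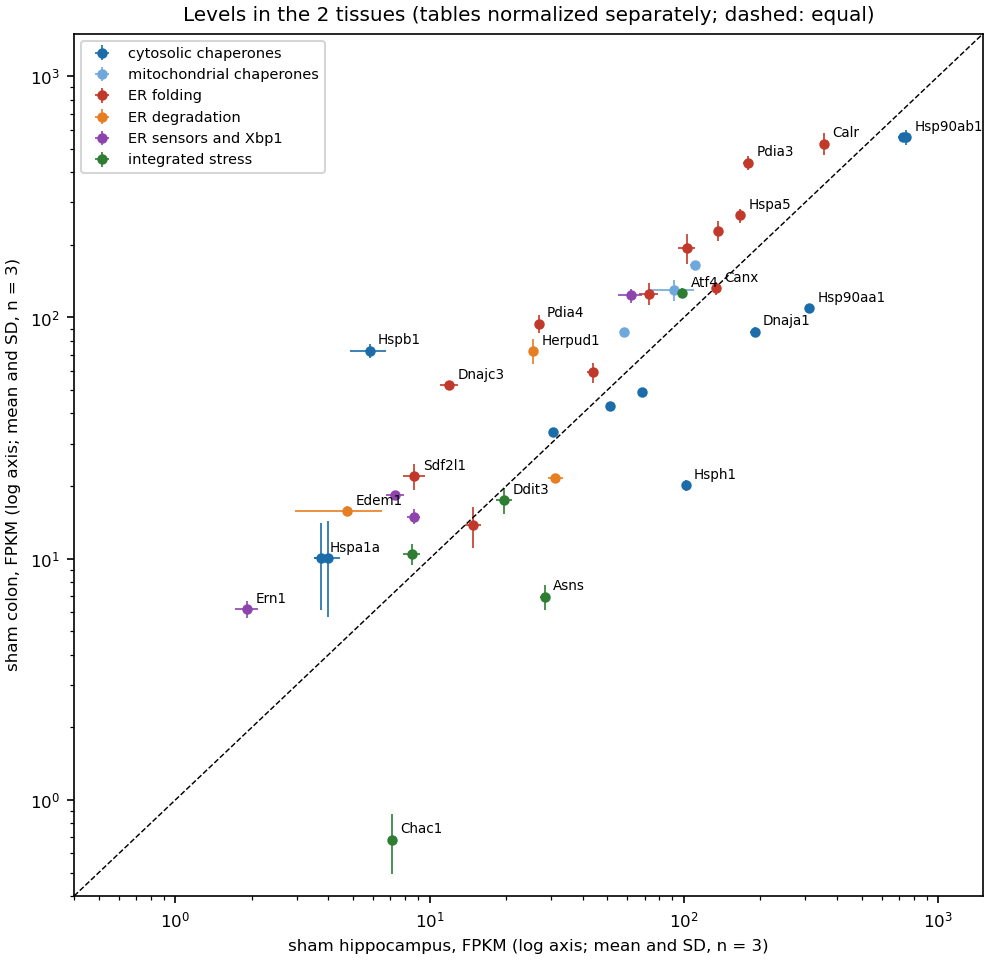
Mean FPKM of each stress gene in 3 sham hippocampus libraries (horizontal, log axis) and 3 sham colon libraries (vertical, log axis), with bars for the SD and the dashed line for equal values. Of the 12 ER folding genes 10 lie above the line, with Canx and Dnajb9 close to it, Hsph1, Asns and Chac1 well below it, and Hspb1 well above it.

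A comparison within each library does not depend on how the tables were scaled to each other, except through the 1 added to each FPKM, which weighs on low genes. The mean log2(FPKM + 1) of the cytosolic rows minus that of the ER folding genes was −0.91 ± 0.12 in sham colon, −0.90 ± 0.10 in HI colon, 0.00 ± 0.01 in sham hippocampus and −0.01 ± 0.12 in HI hippocampus (SD, n = 3). The HI and sham means of this balance differed by less than the SD of either group in the colon. In the hippocampus they differed by less than the SD of the HI libraries but by more than that of the sham libraries, which was 0.0055. The balance of cytosolic rows against integrated stress genes was 2.23 ± 0.11 in sham colon, 2.23 ± 0.25 in HI colon, 1.54 ± 0.08 in sham hippocampus and 1.58 ± 0.09 in HI hippocampus. It was taken over the 5 integrated stress genes listed in both tissues. These include Chac1, which was under 1 FPKM in the colon, and leave out Trib3.

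In the colon, HI libraries were compared with sham libraries gene by gene, with limma on log2(FPKM + 1) and Benjamini-Hochberg adjustment over all 13753 genes tested. Of the 38 tested rows of the stress genes 0 passed an adjusted p of 0.05, where 6 of all genes (0.0436%) did. At an unadjusted p under 0.05 the count was also 0, where 11.1% of all genes passed. The lowest adjusted p among the stress genes was 0.455, that of Ppp1r15a. Fitted differences ran from −0.12 to 0.33 on the log2 scale. They were above 0 for 31 of 38 rows, with a median of 0.08, while over all genes 40.9% were above 0, with a median of −0.04. These counts turn on 1 library: without HI 2, 13 of 38 rows were above 0 and the median was −0.04.

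**Figure D3:**
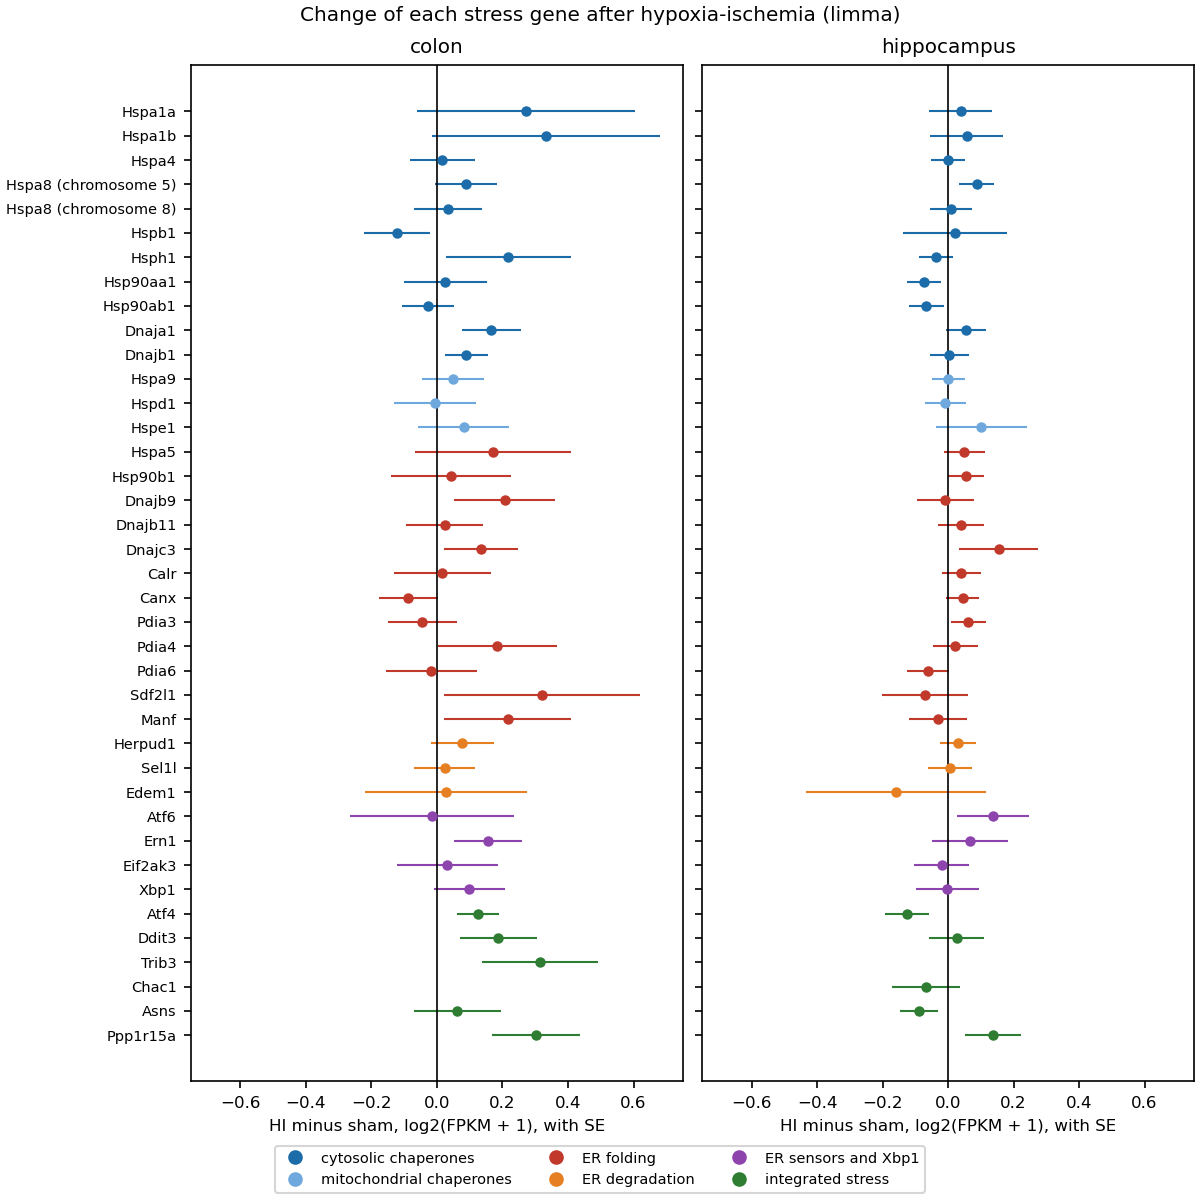
Fitted difference between HI and sham on the log2(FPKM + 1) scale for each stress gene tested in colon (left) and hippocampus (right), with the standard error from limma. The colon points run from −0.12 to 0.33 and the hippocampus points from −0.16 to 0.15, and none passed the adjusted threshold.

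The library HI 2 of the colon was the highest of the 6 for 29 of the 38 tested rows, where it was the highest for 18.5% of all genes tested. This pattern was noticed after the values had been seen, and it describes 1 library, not the HI group. Hspa5, listed as ENSRNOG00000018294, measured 273, 245 and 277 FPKM in sham colon and 235, 456 and 247 in HI colon. HI 2 thus stood far above the rest, and the other 2 HI libraries lay within or just under the sham range. The fitted difference was 0.17 ± 0.24 (SE, adjusted p = 0.809), and without HI 2 it was −0.13.

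Sdf2l1, an ER protein of the Hspa5 folding complex and 1 of the most inducible unfolded protein response targets, measured 22.1, 19.2 and 24.7 FPKM in sham and 17.7, 45.2 and 26.0 in HI. Again HI 2 stood far above the other 5 libraries and the groups overlapped, with a difference of 0.32 ± 0.30 (adjusted p = 0.701). That difference was −0.03 without HI 2 and −0.17 with the Hox score described below as a covariate. Manf, a secreted ER stress protein, measured 129, 111 and 137 against 115, 198 and 136 FPKM. Pdia4, an ER disulfide isomerase, measured 104, 87.7 and 91.8 against 87.4, 145 and 96.8 FPKM. In Hsp90b1, the ER-resident HSP90, sham libraries held 253, 215 and 216 FPKM and HI libraries 197, 319 and 206. All 3 were highest in HI 2, and in all 3 the groups overlapped.

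Among the other ER folding genes HI 2 was the highest library for Dnajb9, Dnajb11, Dnajc3, Calr, Pdia3 and Pdia6, and the exception was Canx, with 138, 135 and 123 FPKM in sham and 125, 136 and 112 in HI. The median of HI 2 minus the mean of the other 5 libraries was 0.38 on the log2 scale over the 12 ER folding genes, 0.38 over the 4 sensor genes, 0.32 over the mitochondrial chaperones, 0.29 over the cytosolic rows, 0.21 over the degradation genes and 0.16 over the integrated stress genes tested. Over all genes tested it was −0.06. The sensors Atf6, with 13.9, 14.8 and 16.1 FPKM in sham and 12.2, 23.4 and 11.1 in HI, and Eif2ak3 (PERK), with 18.7, 18.6 and 17.9 against 16.8, 24.6 and 16.2, were high in HI 2 as well. Ern1 (IRE1α) was not highest there, at 6.72, 5.88 and 5.92 against 6.33, 7.19 and 7.47 FPKM. Xbp1 measured 125, 115 and 131 FPKM in sham and 115, 151 and 133 in HI, counted over both splice forms, which a gene table cannot separate.

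**Figure D4:**
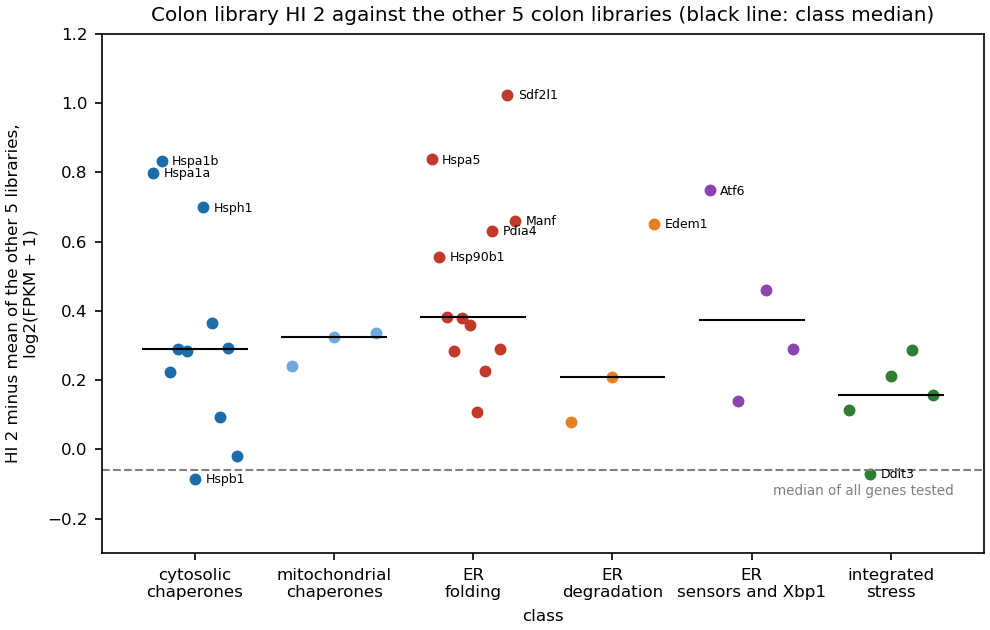
Value of each stress gene in the colon library HI 2 minus its mean over the other 5 colon libraries, on the log2(FPKM + 1) scale, by class, with a black line for the class median. Medians run from 0.16 to 0.38, above the dashed line for the median of all genes at −0.06, and Sdf2l1, Hspa5, Hspa1b and Hspa1a stand highest.

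Cytosolic chaperones shared the pattern in part. Hsph1 measured 19.1, 20.3 and 21.0 FPKM in sham colon and 20.3, 33.1 and 19.4 in HI colon, so that only HI 2 left the sham range upward. Hspa1a and Hspa1b, the stress-inducible HSP70 genes, are near-identical copies whose reads cannot be assigned with certainty. They measured 7.73, 7.89 and 14.6 and 7.39, 7.72 and 15.01 FPKM in sham, and 7.33, 17.6 and 12.8 and 7.53, 18.1 and 13.3 in HI. Here sham 3b and HI 3 were high together with HI 2, and the groups overlapped, with differences of 0.27 ± 0.33 (adjusted p = 0.78) and 0.33 ± 0.35 (adjusted p = 0.735). Hsp90aa1 held 108, 107 and 114 FPKM in sham and 105, 137 and 97.1 in HI. The remaining cytosolic rows, Hspa4 (an HSP110 relative), Dnaja1 and both Hspa8 rows, were highest in HI 2 too, with differences between 0.02 and 0.17. Hspb1 did not follow, at 77.5, 67.9 and 73.1 against 59.4, 66.3 and 75.5 FPKM, nor did Hsp90ab1, at 600.2, 560.4 and 519 against 526, 584 and 537.

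Dnajb1, the HSP40 that loads substrates on HSP70, was 1 of 2 stress genes whose 3 HI colon libraries all lay above the 3 sham libraries, at 33.2, 34.1 and 33.4 FPKM in sham and 36.7, 34.3 and 36.3 in HI. The difference was 0.09 ± 0.07 (adjusted p = 0.619). The other was Atf4, described below. No stress gene had all HI libraries below sham. Over all genes tested, 5.63% lay wholly above and 10.3% wholly below, so 2 of 38 is close to the share of the background.

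Other features also differed between the colon libraries, some of them not in HI 2 alone, and their part in the pattern was not tested. Summed goblet cell markers (6 of 7 listed) lay between 704 and 951 FPKM in sham, and at 813, 2171 and 2075 in the HI libraries. The largest member of the last 2 sums was the goblet cell protein Clca1, at 1229 FPKM in HI 2 and 1161 in HI 3. The other members did not move as 1: of the 6, 3 were highest in HI 2 (Clca1, Spdef and Spink4), 2 in HI 3 and 1 in HI 1. Spink4 stood at 60.9 FPKM in HI 2 and 6.55 in HI 3, the highest and the lowest of the 6 libraries, and Spdef at 69.4 in HI 2 and 49.0 in HI 3. The sum of plasma cell markers, another secretory type, was between 4.79 and 13.6 FPKM in sham and between 11.4 and 11.5 in HI. Epithelial markers summed to 3676 FPKM in HI 2 and to between 2845 and 3462 in the other 5 libraries. Of the 7 epithelial markers 3 were highest in HI 2 (Krt20, Vil1 and Cdh17), and Krt20 had the widest gap, at 707 FPKM against 316 to 464 elsewhere. Erythroid markers summed to 243 in HI 2 and to between 333 and 547 elsewhere. In bulk tissue, a different share of a cell type and a different amount of RNA per cell cannot be told apart.

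Hox genes, which mark position along the gut, differed between the colon libraries too. The mean log2 level of group 13 Hox genes minus that of anterior Hox genes was −2.21, −2.71 and 0.30 in the sham libraries and −0.75, 1.58 and 2.03 in the HI libraries. With this score as a covariate, 17 of 38 rows were above 0, with a median of −0.02, and the ER folding median was −0.06. The balance between HI and sham for the ER genes therefore changes direction with this term and with the removal of HI 2, and no stress gene passed the test in either fit.

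For the integrated stress genes of the colon, the 5 fitted differences were all above 0, with a median of 0.19. Chac1 missed the filter, and with no filter 5 of 6 were above 0, with a median of 0.16. In the filtered fits the class was taken over the 5 genes. The median was 0.26 without HI 2 (4 of 5 above 0) and 0.22 with the Hox score (4 of 5). None of the 5 passed the test. Atf4 measured 127, 119.7 and 132 FPKM in sham and 137, 141 and 135 in HI, with no overlap between the groups and a difference of 0.13 ± 0.06 (adjusted p = 0.498). Its difference ran from 0.07 to 0.17 over the other settings. Ppp1r15a measured 10.3, 9.54 and 11.5 against 15.6, 12.9 and 11.1 FPKM, highest in HI 1, with a difference of 0.30 ± 0.13 (adjusted p = 0.455) that was 0.18 without HI 1. The pseudokinase Trib3, an ATF4 and CHOP target, was at 1.14, 1.63 and 2.21 against 2.56, 2.31 and 1.96 FPKM, and Ddit3 at 17.6, 19.6 and 15.4 against 20.2, 17.9 and 22.1. Asns, at 7.20, 6.02 and 7.65 against 6.97, 8.57 and 6.44 FPKM, was highest in HI 2. Chac1 stayed below 1 FPKM in all 6 colon libraries.

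The genes of ER-associated degradation did not share 1 shape in the colon. Herpud1, which recruits the degradation complex, measured 67.7, 67.8 and 82.3 FPKM in sham colon and 72.0, 77.9 and 79.4 in HI colon, with sham 3b the highest of the 6. Sel1l, the adaptor of the HRD1 ligase, measured 21.0, 21.4 and 22.2 against 21.2, 24.6 and 20.0. Edem1 measured 15.6, 15.2 and 16.6 against 10.5, 23.7 and 16.6, lowest in HI 1 and highest in HI 2. The mitochondrial chaperones Hspd1, Hspe1 and Hspa9 were all highest in HI 2, for instance Hspd1 (HSP60) at 168, 160.0 and 168 FPKM in sham and 159.8, 199 and 139.9 in HI.

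**Figure D5:**
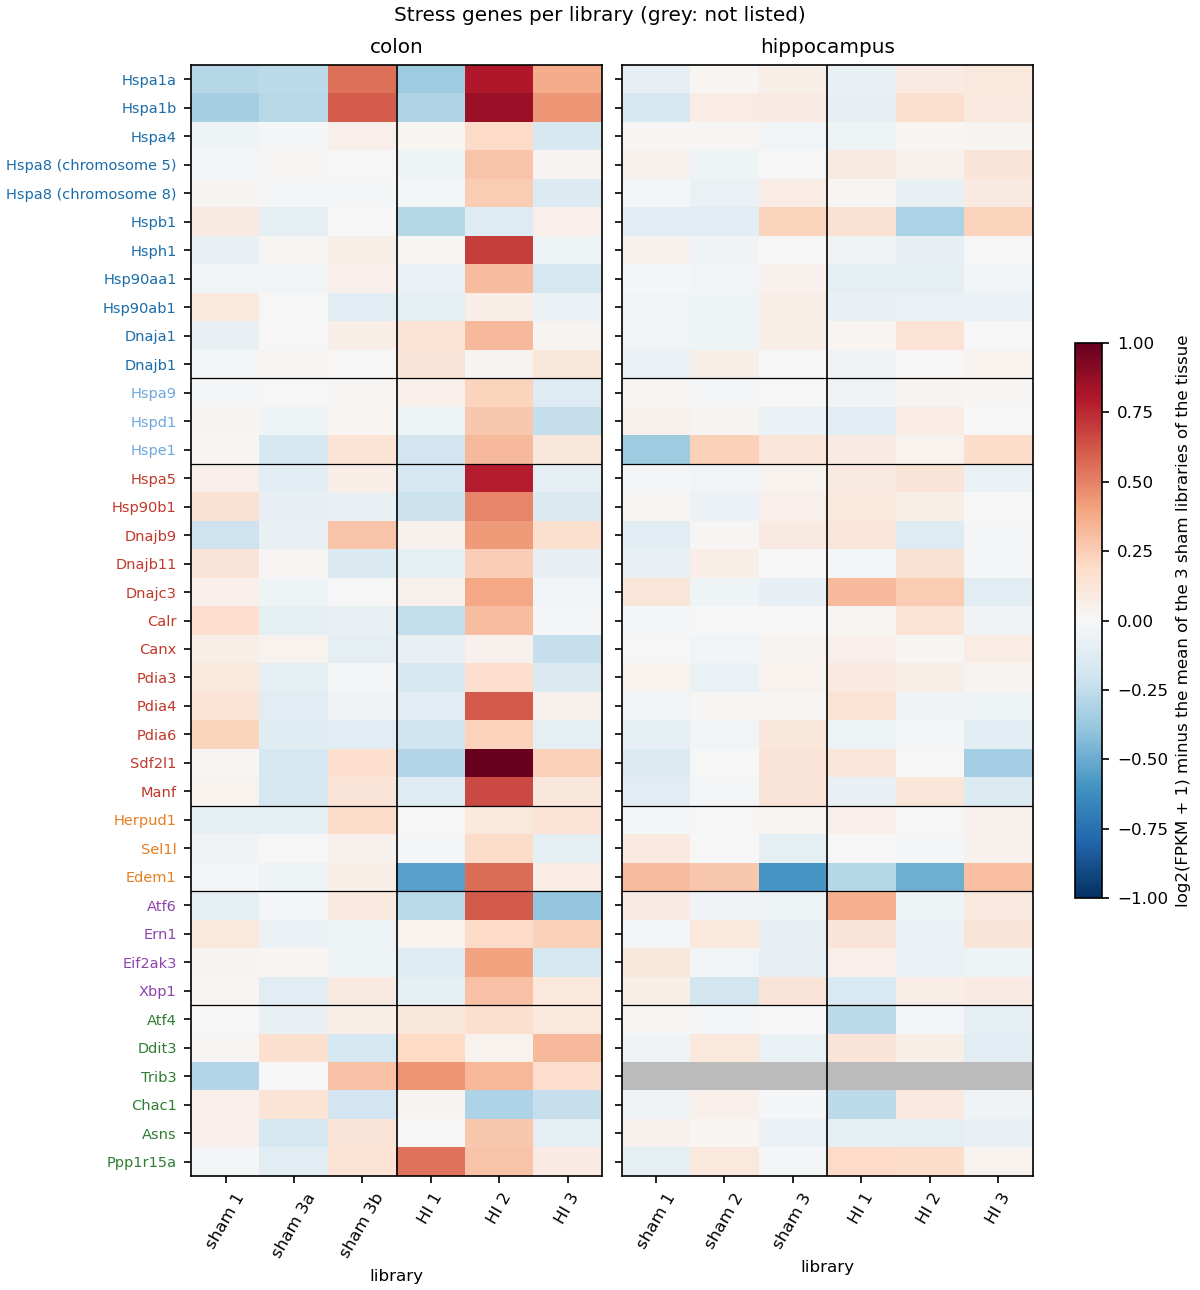
Each stress gene in each library as log2(FPKM + 1) minus the mean of the 3 sham libraries of its tissue, red for higher and blue for lower, with a line between sham and HI and grey for a gene that is not listed. The column HI 2 of the colon is red for most genes, with Sdf2l1 at 45.2 FPKM against 17.7 to 26.0 elsewhere, and no hippocampus column shows a block of that kind.

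In the hippocampus, a region of the injured brain, the same test gave 0 of 38 rows past an adjusted p of 0.05, where 1 of 13181 genes (0.00759%) passed. The count at an unadjusted p under 0.05 was again 0, where 6.62% of all genes passed, and the lowest adjusted p was 0.762, that of Atf4. Differences ran from −0.16 to 0.15, above 0 for 23 of 38 rows, with a median of 0.01, and 49.5% of all genes were above 0. Between hippocampus libraries of 1 group, the stress genes had a median SD of 0.079 on the log2 scale against 0.110 for all genes tested. The 2 sets were not matched for level. In the colon, with HI 2 included, these were 0.178 and 0.141.

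Hspa5 measured 165, 164 and 171 FPKM in sham hippocampus and 177, 182 and 159 in HI hippocampus, so the groups overlapped, with a difference of 0.05 ± 0.06 (SE, adjusted p = 0.883). Sdf2l1 stood at 7.81, 8.73 and 9.59 against 9.55, 8.73 and 6.65 FPKM and Hsph1 at 104, 99.0 and 101 against 98.8, 96.1 and 102. Hspa1a, the HSP70 gene that heat and ischemia induce from a low base, was at 3.49, 3.81 and 3.95 FPKM in sham and 3.51, 4.03 and 4.10 in HI. In these 4 genes the HI and sham values overlapped. Of the ER folding genes the largest fitted difference was that of Dnajc3, at 13.03, 11.6 and 11.2 against 15.1, 14.4 and 10.9 FPKM, with 0.15 ± 0.12 (adjusted p = 0.804). Edem1 was uneven inside both groups, at 5.85, 5.66 and 2.67 and 3.53, 2.92 and 5.78 FPKM. Apart from the 3 genes named next, all rows had overlapping groups in the hippocampus.

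There were 3 genes with all HI hippocampus libraries below all sham libraries, and 0 with them all above. Over all genes 6.81% lay wholly below and 6.4% wholly above. Hsp90ab1 measured 733, 724 and 781 FPKM in sham and 707, 713 and 715 in HI, a difference of −0.07 ± 0.05 (adjusted p = 0.812). Asns measured 29.3, 28.7 and 27.1 against 26.6, 26.4 and 26.9, a difference of −0.09 ± 0.06 (adjusted p = 0.781). The third was Atf4, at 99.1, 97.7 and 98.8 FPKM in sham and 82.2, 97.0 and 91.9 in HI, with −0.13 ± 0.07 (adjusted p = 0.762). Its lowest library, HI 1, also held 4322 FPKM of summed choroid plexus markers (6 of 7 listed), where the other 5 libraries held between 1.68 and 22.2. HI 1 was also the highest library for summed oligodendrocyte markers, at 2612 FPKM against 1159 to 2243 elsewhere, and for summed erythroid markers, at 1939 against 807 to 1647. The Atf4 difference was −0.06 without HI 1 and −0.08 with a myelin score as a covariate. Over the 5 integrated stress genes tested in the hippocampus the median was −0.07, and 0.02 with the myelin score. The part of the choroid plexus and erythroid RNA in these values was not tested.

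The response to HI was then compared between the tissues by the interaction of tissue and injury in 1 fit over the 12 libraries. That fit takes the libraries as independent and the spread of a gene as the same in both tissues. The labels do not say whether a colon and a hippocampus library came from the same rat. Of the 38 rows 0 passed an adjusted p of 0.05, where 2 of 13015 genes (0.0154%) did. At an unadjusted p under 0.05 there was 1, Atf4, where 9.2% of all genes passed. The Atf4 difference in colon minus that in hippocampus was 0.25 ± 0.09 (SE, adjusted p = 0.47). Its HI libraries lay above sham in the colon and below sham in the hippocampus in every case, and the adjusted test did not separate the 2 responses. For Hspa5 the interaction was 0.12 ± 0.27 (adjusted p = 0.904).

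Other genes of the same pathways were read from lists that do not include the 38. In the colon 0 of 41 further heat shock genes, 0 of 14 genes of mitochondrial protein quality, 0 of 49 further ER genes and 0 of 38 further integrated stress genes passed the adjusted test, and in the hippocampus 0 of 41, 0 of 14, 0 of 48 and 0 of 38. At an unadjusted p under 0.05 there were 3, 1, 2 and 3 in the colon, where 11.1% of all genes passed. In the hippocampus there were 2, 0, 0 and 4, where 6.62% of all genes passed. HI 2 was the highest colon library for 23 of the 49 further ER genes, 17 of the 38 further integrated stress genes, 16 of the 41 further heat shock genes and 4 of the 14 mitochondrial ones. Over all genes tested it was the highest for 18.5%. The medians of HI 2 minus the mean of the other 5 libraries were 0.11, 0.10, 0.05 and 0.02 on the log2 scale in the same order. Hsf1 itself, the heat shock factor, measured 18.3, 18.2 and 18.6 FPKM in sham colon and 18.3, 17.9 and 20.6 in HI colon, and 16.8, 17.3 and 19.7 and 17.6, 16.4 and 16.1 in the hippocampus.

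The smallest p among these lists in the colon was that of Atf3, a transcription factor downstream of ATF4 and of many other stress signals. It measured 1.80, 1.40 and 2.58 FPKM in sham colon and 8.53, 8.73 and 5.12 in HI colon, with no overlap, a difference of 1.52 ± 0.22 and an adjusted p of 0.152. Stc2, a secreted glycoprotein induced by PERK and ATF4, lay in the opposite direction, at 3.59, 3.12 and 1.16 against 1.16, 0.476 and 0.469 FPKM (difference −1.04 ± 0.31, adjusted p = 0.364). Among heat shock genes Dnaja4, an HSP40, measured 28.1, 29.3 and 36.5 FPKM in sham and 41.5, 68.4 and 60.1 in HI, again with no overlap (difference 0.82 ± 0.19, adjusted p = 0.31). Of the further ER genes, the Hspa5 exchange factor Sil1 was at 32.1, 31.7 and 22.4 against 24.4, 16.8 and 19.8 FPKM (adjusted p = 0.41) and the chaperone Mesd at 45.7, 43.8 and 41.7 against 40.1, 37.9 and 38.2 (adjusted p = 0.439). In the mitochondrial list Atf5, which drives the mitochondrial unfolded protein response, was at 47.6, 42.3 and 39.5 against 37.1, 31.6 and 39.0 FPKM (adjusted p = 0.442) and the protease subunit Afg3l2 at 61.7, 56.6 and 55.9 against 67.6, 65.0 and 62.5 (adjusted p = 0.451). For Stc2, Dnaja4 and Sil1, sham 1 and sham 3a stood at the opposite end from HI 2 and HI 3, as in the Hox score above. The part of that score in these values was not tested.

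Fkbp5, an HSP90 co-chaperone that glucocorticoids induce, was the gene of these lists that differed between the tissues. It measured 15.9, 17.4 and 17.6 FPKM in sham colon and 9.13, 10.9 and 7.41 in HI colon, and 13.9, 13.5 and 13.6 in sham hippocampus and 16.1, 18.6 and 16.8 in HI hippocampus. All HI libraries lay below sham in the colon and above sham in the hippocampus. The differences within a tissue were −0.84 ± 0.13 (adjusted p = 0.182) and 0.31 ± 0.07 (adjusted p = 0.599). The colon value passed the test in the fit over 12 libraries (adjusted p = 0.0151), and its adjusted p was 0.858 with the Hox score. The interaction was −1.15 ± 0.15 with an adjusted p of 0.0464. The adjusted p of the interaction ranged from 0.0472 to 0.109 over the other settings and from 0.00497 to 0.232 with 1 library left out.

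After Fkbp5, the smallest p-values of the heat shock and integrated stress lists in the hippocampus belonged to Cryab, the small heat shock protein αB-crystallin, at 9.82, 8.25 and 8.86 FPKM in sham and 12.4, 10.2 and 11.6 in HI (adjusted p = 0.684), and to Eif4ebp1, a translation repressor and ATF4 target, at 7.22, 7.27 and 6.78 against 9.40, 9.39 and 7.96 (adjusted p = 0.684). Both had all HI libraries above sham. Cebpb, a partner of ATF4, overlapped, at 9.28, 6.89 and 11.2 against 12.6, 10.9 and 11.7 FPKM (adjusted p = 0.734). Of the ER list, the oxidase Ero1b measured 6.36, 6.21 and 5.60 FPKM in sham and 7.75, 6.71 and 6.81 in HI (adjusted p = 0.734) and the isomerase Txndc5 25.2, 25.9 and 25.9 against 23.0, 24.0 and 23.9 (adjusted p = 0.757). Of the mitochondrial list, Trap1 was at 40.4, 40.7 and 44.1 against 36.8, 39.8 and 41.0 FPKM and Grpel1 at 27.3, 28.4 and 32.7 against 26.2, 28.9 and 26.9, both overlapping.

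The cold-inducible RNA-binding genes Rbm3 and Cirbp, which rise when body temperature falls and fall in heat, were set beside the heat shock genes. Rbm3 measured 179, 183 and 174 FPKM in sham colon and 157, 132 and 131 in HI colon, all HI libraries below sham, with −0.36 ± 0.09 (adjusted p = 0.315). In the hippocampus it measured 65.9, 61.6 and 61.9 against 56.4, 85.5 and 57.5 FPKM, with HI 2 the highest. Cirbp measured 67.2, 66.7 and 55.6 FPKM in sham colon and 64.7, 41.7 and 58.5 in HI colon, lowest in HI 2, and 33.4, 33.7 and 35.7 against 35.0, 43.1 and 33.9 in the hippocampus, highest in HI 2. Body temperature was not among the labels. Its part in these values, and that of the Hox score in the colon, was not tested.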

How the data were processed

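RNA was measured in 12 libraries of rat colon and hippocampus, 3 per group, and groups were taken from the titles and the labels for treatment and tissue. TRIzol extraction was followed by mRNA purification, fragmentation and PCR, per the labels' protocols. The sources used here do not give the aligner, the quantifier, the genome build or the annotation, nor whether counting used strand. Per the file headers, the authors deposited FPKM per library in 1 table per tissue. The deposited columns headed as group FPKM held means of log2(FPKM + 1), and a log2 fold change, a fold change (ratio) and an unadjusted p-value were deposited beside them; none of them was used. Ratios of low values between libraries showed no repeated steps (at most 0.649% of 927 colon genes and 0.658% of 918 hippocampus genes under 1 FPKM shared 1 ratio within 0.1%), so the depth is unknown and counting intervals cannot be formed.

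The 38 symbols were matched to the deposited symbols, and the other pathway lists and marker lists likewise, with RefSeq synonyms where the symbol was not listed. Members and lists were chosen with earlier results of these data known. Genes reaching 1 FPKM in 3 or more libraries were fitted on log2(FPKM + 1) with limma 3.58.1 in R 4.3.3, using eBayes with its trend option for the mean-variance relation. P-values were two-sided and adjusted by the Benjamini-Hochberg method over all genes tested in a fit, with a threshold of 0.05. Differences on this scale understate the change of low genes. The interaction fit took the genes listed in both tables and all 12 libraries, and compares changes within each table. The fit was tested on simulated data. Alternatives were pseudocounts of 0.1 and 0.5, no filter, median-ratio scaling, no trend, 1 fit over 12 libraries, a Hox score (3 group 13 genes against 21 anterior genes) or a myelin score as covariate, the replicate block, and leaving out each library. Named were all 38 symbols, of each other list and tissue every called gene or otherwise the 2 with the smallest p, and Hsf1, Atf3, Cirbp and Rbm3. Promoters are RefSeq windows on GRCr8, and that of 1 stress gene is not reported here; the deposited coordinates name no build and were not joined to it. Python 3.11.15, pandas 2.3.3 and numpy 2.4.6 were used.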

Additional observations from a re-analysis of the deposited data

Results flagged for a closer look

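Fkbp5, an HSP90 co-chaperone that is not among the 38 stress genes, had a difference between HI and sham that differed between the tissues. Its change in the colon minus its change in the hippocampus was −1.15 ± 0.15 on the log2(FPKM + 1) scale (SE, limma interaction, adjusted p = 0.0464 over 13015 genes). All 3 HI libraries lay below the 3 sham libraries in the colon, and all 3 lay above them in the hippocampus. The adjusted p was above 0.05 in 4 of the 5 other settings and in 9 of the 12 fits with 1 library left out. The interaction fit takes the libraries as independent and the spread of a gene as the same in both tissues.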

How the results depend on the processing

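No stress gene passed the adjusted threshold in colon, hippocampus or interaction under any alternative run. In the colon, 13 of 38 rows were above 0 without HI 2 and 17 with the Hox score, with a range of 13 to 36 over the left-out libraries, and 18 rows had the other sign in either fit. In the hippocampus the median over the rows was 0.0065 to 0.036 over the left-out libraries, the highest without sham 3. In the interaction, 14 rows were above 0 without colon HI 2 (range 14 to 33). The cause was not tested.

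The number of all genes called moved in most fits. In the colon it was 3 without the trend, 24 in the fit over 12 libraries, 1 with the Hox score, 3 without sham 1, sham 3a or HI 2, 13 without HI 1, 38 without sham 3b and 2 without HI 3. In the hippocampus it was 0 with pseudocount 0.1, without the trend, with the myelin score or with the replicate block, and 0 to 5 over the left-out libraries. In the interaction it was 1 with pseudocount 0.1 or 0.5, with median-ratio scaling or without the trend, and 1 to 25 over the left-out libraries, with 25 without sham 3b. Fits that leave out 1 library assume that the groups vary alike.

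In the hippocampus the correlations of deviations between same-numbered libraries were −0.05, 0.08 and −0.03. Those between unlike-numbered libraries ran from −0.14 to 0.14. Deviations from means of 3 libraries cannot settle whether the samples were paired. The block gave 0 genes called, and it cannot change a sign because the design is balanced. No paired analysis was possible for the colon because 2 sham columns carry no number of their own. Median-ratio scaling moved the median of all genes by 0.04 in the colon. Depth is unknown, so the precision of low genes such as Chac1 and Trib3 in the colon rests on 3 libraries alone.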
